A study of Cricetulus griseus with 24 samples.

Results

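The genes described here are the translation initiation factors of the Chinese hamster, taken as every row of the counts table whose symbol opens with Eif and a digit from 1 to 6, leaving out the kinases named Eif2ak and the binding proteins named Eif4ebp. The rule gave 44 of 28037 genes, and all 44 passed the filter on low counts in every comparison. RNA was sequenced from A0, a low-producing parental line of antibody-expressing CHO DG44 cells, from A1, the progeny of A0 after methotrexate amplification, and from CHO-S, another CHO line, whose libraries carry the mark NDST in their titles, which the sources used here do not explain. A0 and A1 were grown as batch suspension cultures in shake flasks, the culture of CHO-S is not described in the sources used here, and each line was sampled at exponential and at stationary phase, with 4 cultures of A0, 3 of A1 and 3 of CHO-S at each phase. A0 and A1 carry plasmids of the antibody heavy chain and light chain with selection markers, the one with the light chain being neomycin resistance. A0 and A1 are each 1 cell line, so a difference between them is a difference between those lines and is not replicated over independent amplifications. CHO-S may differ from them in line history, in antibody expression and in what NDST marks, and the effects of these cannot be told apart.

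Initiation factors bring the small ribosomal subunit and the initiator tRNA to the start codon of a messenger RNA. The eIF4 proteins bind the cap and unwind the leader, eIF2 carries the initiator tRNA and is recharged by eIF2B, and eIF3 holds the assembly on the small subunit. In cultured cells initiation is the step at which growth signals and stress mostly set the rate of protein synthesis, largely by phosphorylation of eIF2 and of the proteins that bind the cap-binding protein, which messenger RNA counts do not show.

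Libraries held 6532373 to 14652646 counts on genes, with 1 exception, and the second library of each exponential A0 culture was added to the first. The exception was CHO-S stationary culture 1 with 1038026 counts. Of its reads 32.8% fell on no annotated gene, against 18.2% and 18.1% in CHO-S stationary cultures 2 and 3. Levels were compared over 10588 genes with at least 5 counts per 1000000 counts (CPM) on average. The log2 levels of culture 1 differed from those of its group by a median of 0.603, against 0.0573 to 0.168 for the cultures of the other 5 groups. Of the 44 initiation factor genes, 17 lay above both other CHO-S stationary cultures in it and 25 below both, and 11 and 10 of these did so by at least 1.5-fold. Eif3a, the largest subunit of eIF3, had 2780.3, 963 and 942 CPM in the CHO-S stationary cultures, Eif4e, the cap-binding protein, had 767, 187 and 174 CPM, and Eif5a, the hypusinated factor, had 162, 679 and 694 CPM. Counts on CHO-S at stationary phase are therefore given with and without culture 1, and the plots of fold changes leave it out. The stromal gene Vim was high in all 20 cultures, with 728 to 1465 CPM, while the leukocyte gene Ptprc and the liver gene Alb had at most 10 counts in any culture. Col1a1 had at most 8, Mgat3 at most 2, St6gal1 at most 19 and the epithelial gene Epcam at most 45 counts. Values in CPM are shares of the counted RNA, so they show neither the number of cells nor the RNA per cell. Less of a gene's RNA and more of other RNA cannot be told apart.

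**Figure D1:**
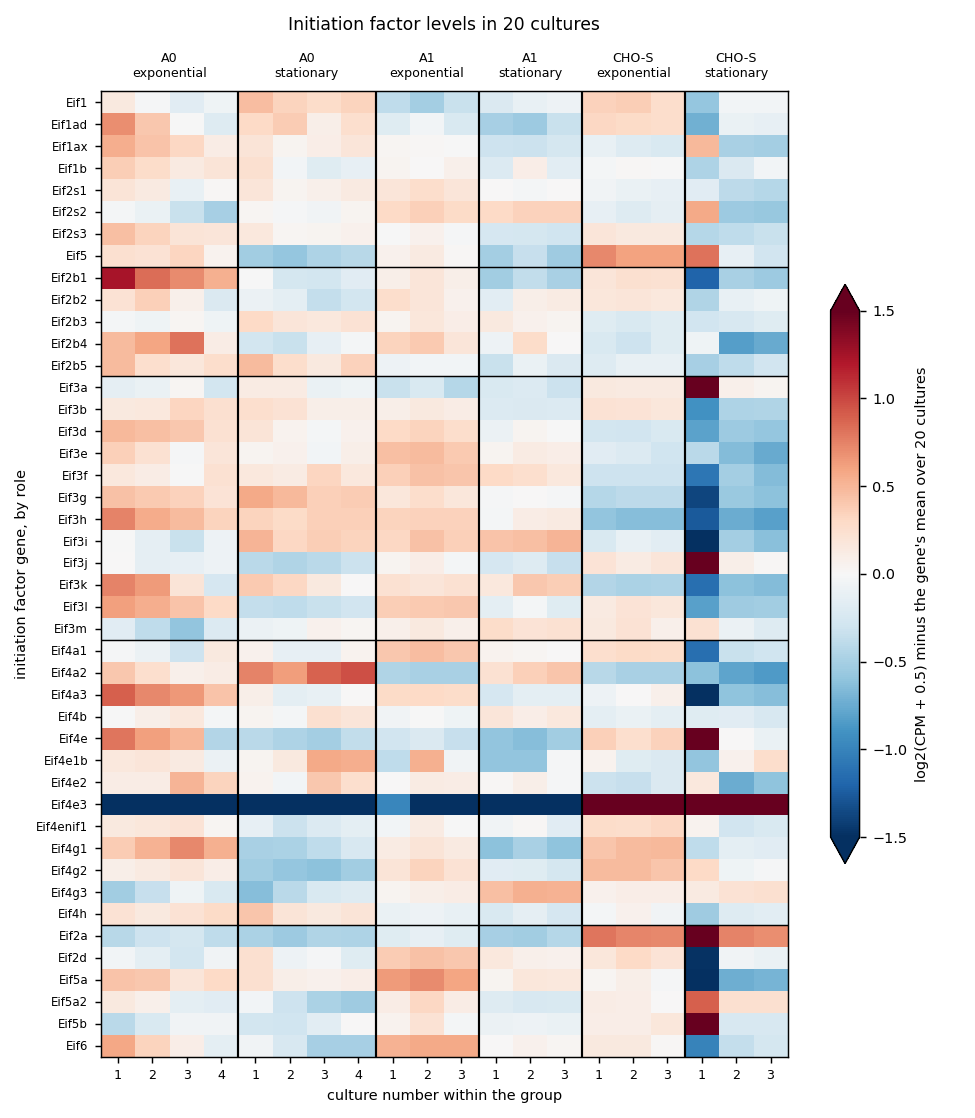
Levels of the 44 initiation factor genes in 20 cultures. Rows are genes grouped by role and columns are cultures, and colour gives log2(CPM + 0.5) minus the mean of the gene over all 20 cultures, with values beyond 1.5 shown in the end colours. CHO-S stationary culture 1 stands apart from the other 2 CHO-S stationary cultures, and Eif4e3 separates CHO-S from A0 and A1.

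The first question was whether the amplified progeny A1 differed from A0 at exponential phase. A1 expressed more of the helicase gene Eif4a1 and less of its paralog Eif4a2, more of the eIF2 beta subunit gene Eif2s2 and less of the gamma subunit gene Eif2s3, and less of Eif2b1 and of the scaffold gene Eif4g1. Of the 44 genes, 18 passed the threshold (edgeR's quasi-likelihood test, Benjamini-Hochberg adjusted p under 0.05), with 8 higher and 10 lower in A1. Among all 19946 genes tested 25.9% passed, and among the 10579 with at least 5 CPM on average 37.8% passed, against 40.9% of the initiation factor genes. The median log2 fold change was -0.10 over the 44 genes, -0.04 over all genes tested and -0.0071 over those with at least 5 CPM on average. None of the 18 genes changed by 2-fold. The cultures of A1 and A0 did not overlap for 13 genes that were higher and 11 that were lower in A1, and 34.4% of all genes tested had no overlap. Here and in the later comparisons the share without overlap was not taken over genes with at least 5 CPM on average. It is therefore not matched to the levels of the 44 genes. Leaving out A1 exponential culture 1, 2 or 3 left 9, 11 or 9 genes past the threshold. Over all genes the same refits called 3422 of 19731, 3403 of 19795 and 3160 of 19763, against 5163 with every culture. Calls were thus lost in each of these refits, and the genes that lost theirs are not all named below. With A0 cultures 1 and 2 alone as the comparison group, a choice made after the values were seen, 30 passed. So did 7179 of the 19086 genes tested and 5815 of the 10577 with at least 5 CPM on average.

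Of the 13 genes of cap binding and the eIF4 proteins, 2 were higher in A1, 5 were lower and 6 did not pass. Eif4a1, the main RNA helicase of the cap complex, had 427, 408, 349 and 481 CPM in the A0 cultures and 576, 596 and 575 CPM in the A1 cultures. The lowest A1 culture exceeded the highest A0 culture, and the level rose 1.40-fold in A1 (log2 fold change 0.48 ± 0.10 (SE), adjusted p = 0.0031). Its paralog Eif4a2 had 300.4, 270.1, 239.8 and 245 CPM in A0 and 166, 162 and 162 CPM in A1. Here the highest A1 culture was under the lowest A0 culture, and the level was 1.62-fold lower in A1 (log2 fold change -0.69 ± 0.10 (SE), adjusted p = 0.00012). Eif4a2 had 348 CPM before TMM scaling in the second library of A0 culture 1, marked RLT, against 229.7 CPM in its first library, and with first libraries alone its log2 fold change was -0.55. Counts of Eif4a1 were 1.42 to 1.97 times those of Eif4a2 in the A0 cultures and 3.47 to 3.68 times in the A1 cultures, a ratio within a culture that does not depend on the scaling between cultures. Reads with several alignments went uncounted, so close paralogs such as this pair can lose reads, and the ratio is one of counts and not of molecules. The third helicase gene, Eif4a3, which serves in the exon junction complex, had 476, 420.1, 400.0 and 344 CPM in A0 and 311, 314 and 308 CPM in A1. It was lower in A1 without overlap (log2 fold change -0.40 ± 0.11 (SE), adjusted p = 0.011), with an adjusted p of 0.053 without A1 culture 1 and 0.062 without A1 culture 3. Eif4e2, Eif4enif1, Eif4b and Eif4g2 did not pass, with log2 fold changes from -0.20 to 0.13, and Eif4e1b and Eif4e3 were near 0 counts in both lines.

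Eif4g1, the scaffold that joins the cap-binding protein to the helicase, had 1556, 1711, 1967 and 1719 CPM in A0 and 1296, 1366 and 1307 CPM in A1, with no overlap between the lines. Before TMM scaling Eif4g1 had 1284 and 1561 CPM in the RLT libraries of A0 cultures 1 and 2, against 1801 and 1810.5 in the first. Its log2 fold change was -0.40 ± 0.09 (SE), adjusted p = 0.0062. The paralog Eif4g3 went the other way, from 112, 127, 154 and 138 CPM in A0 to 166, 171 and 174 CPM in A1 (log2 fold change 0.36 ± 0.10 (SE), adjusted p = 0.018). The cap-binding protein gene Eif4e had 328, 286, 266 and 138 CPM in A0 and 153, 161 and 147 CPM in A1. A0 culture 4 lay below all 3 A1 cultures while the other 3 A0 cultures lay above them, and both libraries of culture 4 were low, with 141 CPM each before TMM scaling. The fitted log2 fold change of Eif4e was -0.73 ± 0.20 (SE), adjusted p = 0.014, and with A0 cultures 3 and 4 alone it was -0.40 with an adjusted p of 0.19. Its adjusted p was 0.054 to 0.089 without any 1 of the A1 cultures and 0.059 with DESeq2. Eif4h, which stimulates the helicase, was also lower in A1 (log2 fold change -0.32 ± 0.08 (SE), adjusted p = 0.01).

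**Figure D2:**
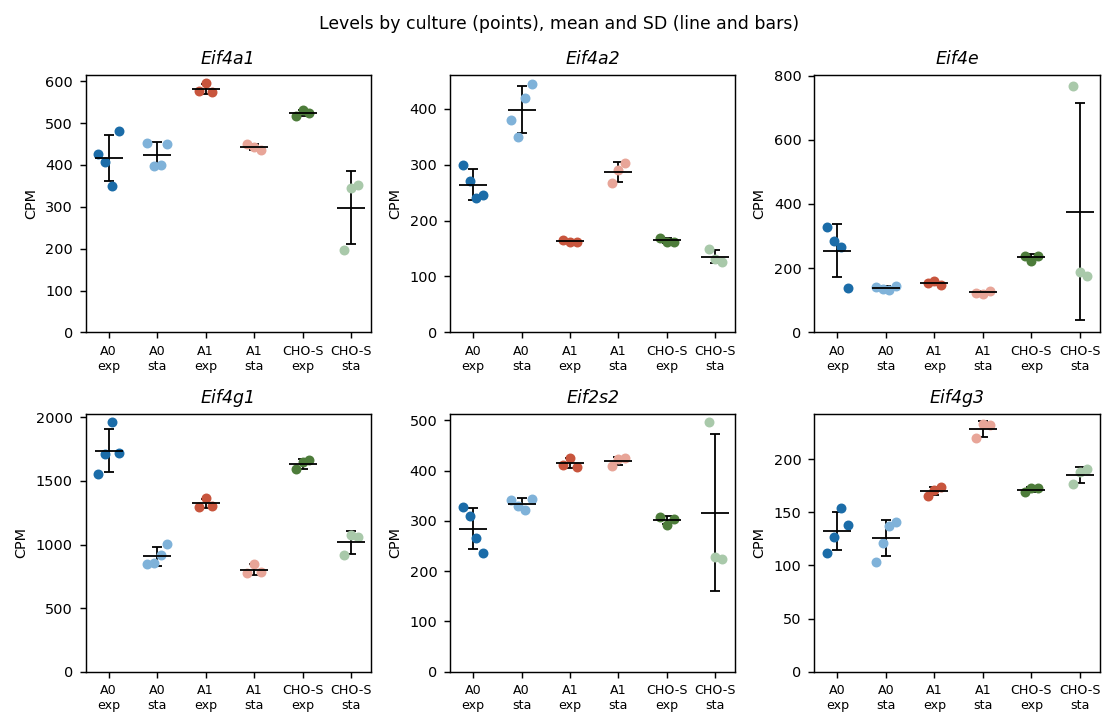
Levels of Eif4a1, Eif4a2, Eif4e, Eif4g1, Eif2s2 and Eif4g3 in CPM (vertical axis from 0) in the 6 groups of cultures. Points are cultures, lines are means and bars are SD (n = 4 for A0, n = 3 for A1 and CHO-S). At exponential phase A1 lies above A0 for Eif4a1 and below it for Eif4a2, A0 culture 4 is low for Eif4e, and CHO-S stationary culture 1 is apart for Eif4e with 767 CPM.

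The 8 genes grouped under start codon recognition and the ternary complex of eIF2, GTP and initiator tRNA gave 1 rise and 3 falls in A1. Eif1ad was placed in this group by its symbol. Eif2s2, the beta subunit of eIF2, had 327, 310.3, 265 and 237 CPM in A0 and 412, 426 and 407 CPM in A1. All 3 A1 cultures exceeded all 4 A0 cultures, by 1.45-fold on average (log2 fold change 0.54 ± 0.11 (SE), adjusted p = 0.0018). The gamma subunit gene Eif2s3 was lower in A1 (log2 fold change -0.28 ± 0.09 (SE), adjusted p = 0.035), with 311 to 330.1 CPM against 359 to 432 CPM. For the alpha subunit gene Eif2s1, whose protein is the target of the eIF2 kinases, the cultures had 293, 279, 236 and 258 CPM in A0 and 289.9, 307 and 291 CPM in A1. These overlapped, and the log2 fold change of 0.15 ± 0.09 (SE), adjusted p = 0.28, did not pass. Eif1, which guards the choice of start codon, had 127, 113, 102 and 109 CPM in A0 and 88.0, 80.1 and 90.8 CPM in A1, with every A1 culture below every A0 culture. Its log2 fold change was -0.39 ± 0.10 (SE), adjusted p = 0.0088, and Eif1ax, its partner on the small subunit, had -0.34 ± 0.10 (SE), adjusted p = 0.023. Eif1ad, Eif1b and Eif5 did not pass (log2 fold changes -0.42, -0.21 and -0.14).

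Of the 5 genes of eIF2B, the exchange factor that recharges eIF2 with GTP, Eif2b1 and Eif2b5 were lower in A1 and the other 3 did not pass. Eif2b1, the regulatory alpha subunit, had 125, 94.3, 86.2 and 76.7 CPM in A0 and 56.0, 59.8 and 56.0 CPM in A1. The lines did not overlap, and A1 was 1.67-fold lower (log2 fold change -0.74 ± 0.14 (SE), adjusted p = 0.0011). The highest A0 value was that of culture 1, whose RLT library had 152 CPM before TMM scaling against 87.6 CPM in the first. With the first A0 library of each culture alone, the log2 fold change of Eif2b1 was -0.56 and stayed past the threshold. Eif2b2, Eif2b3 and Eif2b4 had log2 fold changes from -0.21 to 0.14.

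Among the 12 eIF3 subunit genes 3 were higher in A1, none was lower and 9 did not pass, and Eif3c, another subunit, was not analysed here. Eif3i had 272, 249, 217 and 259 CPM in A0 and 338, 371 and 349 CPM in A1, and Eif3m had 98.2, 84.4, 73.0 and 95.4 CPM and 116, 122 and 116 CPM. Both rose without overlap, by 1.41-fold and 1.35-fold (log2 fold changes 0.50 ± 0.09 (SE), adjusted p = 0.0013, and 0.43 ± 0.10 (SE), adjusted p = 0.007). The third was Eif3f, with 0.28 ± 0.09 (SE), adjusted p = 0.03. The other 9 subunit genes had log2 fold changes from -0.21 to 0.25.

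Of the 6 remaining factors, 2 were higher in A1 and none was lower. Eif2d, which can place initiator tRNA on the ribosome without eIF2, had 84.7, 79.2, 72.3 and 84.0 CPM in A0 and 114, 119 and 116 CPM in A1, a 1.45-fold rise without overlap (log2 fold change 0.54 ± 0.09 (SE), adjusted p = 0.00043). Eif5a, whose hypusinated product eases peptide bond formation, had 1517, 1487, 1271 and 1385 CPM in A0 and 1755, 1843 and 1699.9 CPM in A1. Its rise passed in the comparison of all cultures (log2 fold change 0.32 ± 0.09 (SE), adjusted p = 0.019) and not without any 1 of the A1 cultures, where the adjusted p reached 0.11. The paralog Eif5a2 had 90.0, 85.7, 73.3 and 72.2 CPM in A0 and 87.4, 101 and 87.4 CPM in A1, with overlap (log2 fold change 0.19 ± 0.10 (SE), adjusted p = 0.2). Eif6, which keeps the large ribosomal subunit from joining early, had 345, 291, 248 and 209.7 CPM in A0 and 331, 344 and 342 CPM in A1. A0 culture 1 lay above the A1 cultures and the other A0 cultures below them, and the difference did not pass (log2 fold change 0.31 ± 0.13 (SE), adjusted p = 0.1). The RLT library of that culture had 387 CPM of Eif6 before TMM scaling against 278 CPM in its first library.

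**Figure D3:**
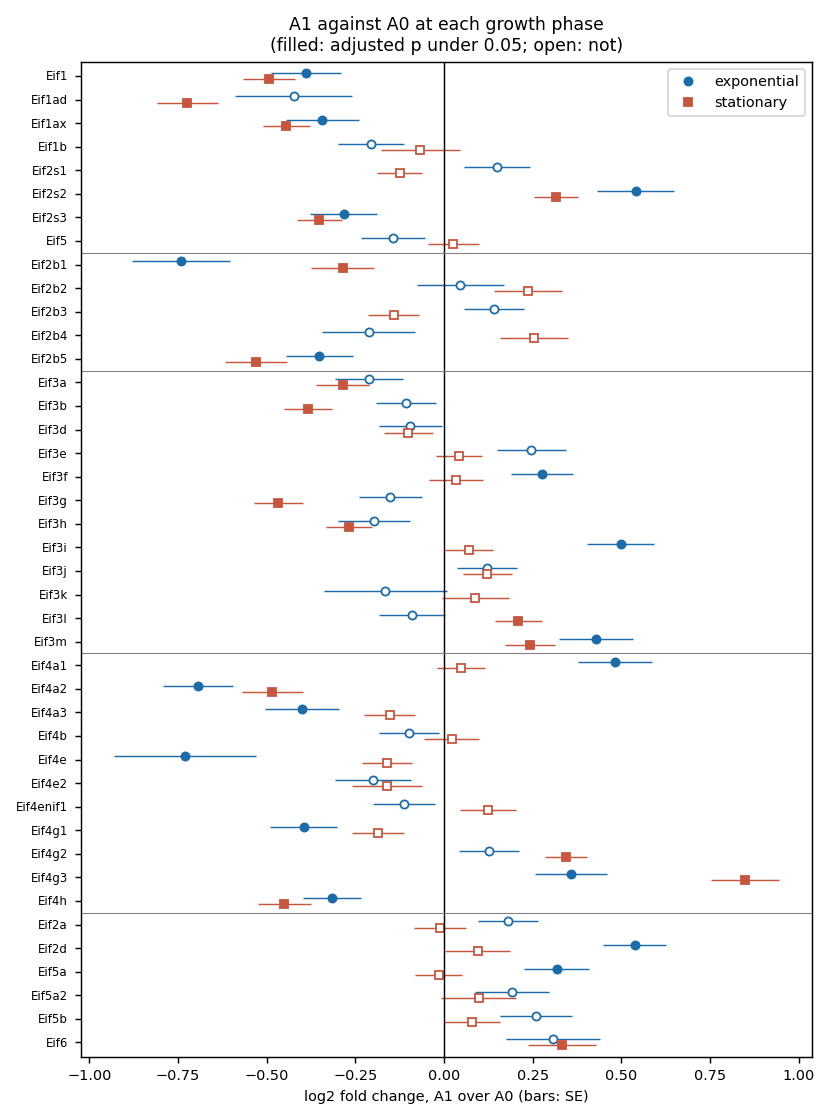
Log2 fold change of A1 over A0 (horizontal axis) for 42 initiation factor genes grouped by role, at exponential phase (circles) and stationary phase (squares). Bars are standard errors and filled symbols passed the threshold. Eif4e1b and Eif4e3, which had at most 9 counts in any A0 or A1 culture, are left out. The filled symbols run from -0.74 for Eif2b1 at exponential phase to 0.85 for Eif4g3 at stationary phase.

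The same comparison was made at stationary phase. A1 then had more of the scaffold genes Eif4g3 and Eif4g2 and of Eif6, and less of Eif1ad, Eif2b5, Eif1, Eif4a2 and Eif3g. Of the 44 genes 18 passed, 6 higher and 12 lower in A1, which is 40.9% against 33.7% of the 19293 genes tested and 47.3% of those with at least 5 CPM on average. The median log2 fold change was -0.04 over the 44 genes, -0.0021 over all genes tested and 0.0031 over those with at least 5 CPM on average. Among the 44 genes 6 were higher and 16 lower without overlap, and 39.9% of all genes tested had no overlap. There were 10 genes of the 44 that passed at both phases, all in the same direction, 22.7% against 15.6% of all genes tested at both phases and 21.5% of those with at least 5 CPM on average. The A0 cultures of the 2 phases were taken as paired by their numbers, as described under the phase change in A0, so the 2 comparisons are not taken as independent.

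Eif4g3 had 103, 122, 138 and 141 CPM in the stationary A0 cultures and 219.5, 234 and 232 CPM in the A1 cultures. Every A1 culture was far above every A0 culture, and the 1.80-fold rise (log2 fold change 0.85 ± 0.10 (SE), adjusted p = 1.4e-05) was the largest among the genes that passed. Eif4g2, a scaffold without the site for the cap-binding protein, had 1075, 1029, 1011 and 1077 CPM in A0 and 1374, 1358 and 1289 CPM in A1 (log2 fold change 0.34 ± 0.06 (SE), adjusted p = 0.0005). Eif4g1 itself had 846, 858, 915 and 1004 CPM and 775, 850.2 and 782 CPM, which overlapped, and did not pass (log2 fold change -0.19 ± 0.07 (SE), adjusted p = 0.065). Eif4a2 had 379, 349.7, 419.7 and 445 CPM in A0 and 267, 291 and 302 CPM in A1, again lower in A1 without overlap (log2 fold change -0.48 ± 0.09 (SE), adjusted p = 0.00054). Eif4a1 had 397 to 453 CPM in A0 and 435 to 449 CPM in A1 and did not pass (log2 fold change 0.05 ± 0.07 (SE), adjusted p = 0.64). For Eif4e, 120.1 to 130.1 CPM in A1 against 131 to 145 CPM in A0 gave a log2 fold change of -0.16 ± 0.07 (SE), adjusted p = 0.094, and did not pass although the cultures did not overlap.

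In the start codon and eIF2 group 1 gene was higher and 4 were lower in A1 at stationary phase. Eif2s2 had 342, 331, 322 and 344 CPM in A0 and 409, 423 and 425 CPM in A1, above A0 in every culture (log2 fold change 0.32 ± 0.06 (SE), adjusted p = 0.0012). Eif1ad, named for its eIF1A domain, had 215, 227, 185 and 208 CPM in A0 and 124, 119.5 and 139 CPM in A1, 1.65-fold lower (log2 fold change -0.72 ± 0.09 (SE), adjusted p = 2.3e-05). Eif1 had 158, 145, 139 and 144 CPM in A0 and 99.0, 106 and 109 CPM in A1 (log2 fold change -0.49 ± 0.07 (SE), adjusted p = 0.00013). For all 3 the lines did not overlap. Eif1ax and Eif2s3 were lower as well (log2 fold changes -0.45 and -0.35), as at exponential phase. Eif2s1 did not pass (log2 fold change -0.13 ± 0.06 (SE), adjusted p = 0.15).

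In eIF2B, the catalytic epsilon subunit gene Eif2b5 had 116, 100.3, 92.7 and 106 CPM in A0 and 66.4, 78.2 and 72.0 CPM in A1, lower in A1 without overlap (log2 fold change -0.53 ± 0.09 (SE), adjusted p = 0.00033). Eif2b1 was lower too (log2 fold change -0.29 ± 0.09 (SE), adjusted p = 0.024). Of the eIF3 subunit genes 2 were higher and 4 lower. Eif3g had 481, 451, 414 and 421 CPM in A0 and 319.7, 326 and 320.0 CPM in A1 (log2 fold change -0.47 ± 0.07 (SE), adjusted p = 0.00013), and Eif3m had 104, 105, 115 and 112 CPM and 133, 127 and 129.6 CPM (log2 fold change 0.24 ± 0.07 (SE), adjusted p = 0.016). Eif3g was thus lower and Eif3m higher in every A1 culture than in any A0 culture, although the call of Eif3m was lost without A1 culture 1 or 3. Eif3a, Eif3b and Eif3h were the other genes that were lower in A1 (log2 fold changes -0.29, -0.38 and -0.27), and Eif3l was higher (0.21). The 6 subunit genes that did not pass had log2 fold changes from -0.10 to 0.12.

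Of the 6 remaining factors Eif6 passed, with 222, 195, 164 and 164 CPM in A0 and 232, 241 and 235 CPM in A1. All A1 cultures lay above all A0 cultures (log2 fold change 0.33 ± 0.10 (SE), adjusted p = 0.015), but with A0 cultures 1 and 2 alone the adjusted p was 0.061. Eif5a had 1179.9 to 1331 CPM in A0 and 1153 to 1262 CPM in A1 (log2 fold change -0.02 ± 0.07 (SE), adjusted p = 0.89), and Eif5a2 55.8 to 78.7 CPM and 68.3 to 70.8 CPM (log2 fold change 0.10 ± 0.11 (SE), adjusted p = 0.53). Neither passed, and Eif2a, Eif2d and Eif5b did not pass either (log2 fold changes -0.01, 0.09 and 0.08).

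Whether the difference between A1 and A0 itself differed between the phases was tested as an interaction of line and phase. It passed for 4 of the 44 genes, 9.09%, against 8.94% of the 20953 genes tested and 15.8% of those with at least 5 CPM on average. Eif4g3 was raised further in A1 at stationary phase (log2 difference of the fold changes 0.49 ± 0.15 (SE), adjusted p = 0.036). Eif2d, Eif4a1 and Eif3i, which were higher in A1 at exponential phase, were closer to A0 at stationary phase (log2 differences -0.44 ± 0.13 (SE), adjusted p = 0.038; -0.44 ± 0.13 (SE), adjusted p = 0.039; and -0.43 ± 0.12 (SE), adjusted p = 0.027). Without A0 stationary culture 1, A1 exponential culture 2 or 3, or A1 stationary culture 1 or 2, edgeR called 0 of the 44 genes, with 10 to 16 at an unadjusted p under 0.05. Among all genes tested these refits called 1003 to 1458, against 1873 with every culture. Among those with at least 5 CPM on average they called 910 to 1301, against 1669. With DESeq2 10 of the 44 genes passed, and 10 passed with the culture number within each line as a block. Of the 20953 genes tested 2402 passed with DESeq2 and 3435 with the block. Correlated deviations by number were seen in every pair of the A0 cultures and not in every pair of the A1 cultures. With the block, Eif4e (0.51, adjusted p = 0.00055) and Eif5a (-0.34, adjusted p = 0.01) were among the 10 genes. By number, Eif4e fell between the phases from 328, 286 and 266 to 142, 136 and 131 CPM in A0 cultures 1, 2 and 3. In A0 culture 4 it did not fall, with 138 and then 145 CPM. Without the block the log2 difference of Eif4e did not pass (0.57 ± 0.23 (SE), adjusted p = 0.14).

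A second question was how the factors changed between exponential and stationary phase within each line. In A0 the scaffold Eif4g1, Eif2b1, Eif3l, Eif4a3 and Eif5 fell and Eif4a2, Eif3i and Eif1 rose. Of the 44 genes 5 were higher and 14 lower at stationary phase, 43.2% in all against 37.7% of the 20267 genes tested and 54.7% of those with at least 5 CPM on average. The lower ones alone were 31.8% of the 44 genes and 32.4% of the genes with at least 5 CPM. The median log2 fold change was -0.16 over the 44 genes, 0.0013 over all genes tested and -0.086 over those with at least 5 CPM on average. Without overlap 5 genes were higher and 12 lower, and 35.8% of all genes tested had no overlap.

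Eif2b1 had 125, 94.3, 86.2 and 76.7 CPM in the exponential A0 cultures and 52.5, 43.8, 43.3 and 46.7 CPM in the stationary ones, 2.07-fold lower (log2 fold change -1.05 ± 0.13 (SE), adjusted p = 1.3e-05). Eif4g1 had 1556, 1711, 1967 and 1719 CPM and then 846, 858, 915 and 1004 CPM, 1.93-fold lower (log2 fold change -0.95 ± 0.10 (SE), adjusted p = 2.3e-06). For both genes every stationary culture lay below every exponential one. Eif3l, an eIF3 subunit, fell by 0.83 on the log2 scale, Eif4a3 by 0.73 and Eif5, the factor that triggers GTP hydrolysis on eIF2, by 0.72. Their adjusted p values were 4.0e-06, 4.7e-05 and 1.3e-05 (edgeR's quasi-likelihood test). Eif4a2 rose, with 239.8 to 300.4 CPM at exponential and 349.7 to 445 CPM at stationary phase and no overlap (log2 fold change 0.58 ± 0.11 (SE), adjusted p = 0.00034). Eif3i rose too, with 217 to 272 CPM and then 339 to 388 CPM (log2 fold change 0.50 ± 0.10 (SE), adjusted p = 0.00056), as did Eif1, with 102 to 127 CPM and then 139 to 158 CPM (log2 fold change 0.36 ± 0.09 (SE), adjusted p = 0.006). The smaller rises of Eif3m and Eif2b3 (log2 fold changes 0.30 and 0.24) passed with all cultures and not without exponential culture 2 or stationary culture 3 or 4.

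Of the genes followed in every comparison, Eif4e fell in A0 (log2 fold change -0.89 ± 0.18 (SE), adjusted p = 0.00099) with exponential culture 4 inside the stationary range, and Eif6 fell (log2 fold change -0.57 ± 0.14 (SE), adjusted p = 0.0044). Eif5a2 fell by a smaller amount (log2 fold change -0.33 ± 0.12 (SE), adjusted p = 0.036), and this did not pass with DESeq2 (adjusted p = 0.057). Eif4a1, Eif2s1 and Eif5a did not pass, with log2 fold changes of 0.02 ± 0.11 (SE), adjusted p = 0.91; 0.03 ± 0.09 (SE), adjusted p = 0.82; and -0.22 ± 0.09 (SE), adjusted p = 0.085. Culture numbers were taken to pair the A0 cultures of the 2 phases, because the deviations of every pair were correlated. With the number as a block Eif5a passed (log2 fold change -0.22, adjusted p = 0.03), a call that rests on this pairing.

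In A1 the change at stationary phase was mostly downward. Of the 44 genes 24 were lower and 5 higher, 65.9% in all against 33.4% of the 18548 genes tested and 50.6% of those with at least 5 CPM on average. The genes that fell made up 54.5% of the 44, and 29.6% of the genes with at least 5 CPM. The median log2 fold change was -0.25 over the 44 genes, 0.03 over all genes tested and -0.044 over those with at least 5 CPM on average. Without overlap 5 genes were higher and 27 lower, against 43.1% of all genes tested without overlap. When all 6 groups shared 1 estimate of the spread, the group that held CHO-S stationary culture 1 included, 9 genes passed. Among all 21358 genes of that fit 2470 passed.

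Eif4g1 had 1296, 1366 and 1307 CPM at exponential and 775, 850.2 and 782 CPM at stationary phase in A1 (log2 fold change -0.70 ± 0.05 (SE), adjusted p = 2.4e-12), so the scaffold fell in the progeny as in the parent. Eif2b1 (-0.55 ± 0.07 (SE), adjusted p = 4.7e-07) and Eif5 (-0.51 ± 0.06 (SE), adjusted p = 4.6e-08) fell on the log2 scale as well. Eif5a had 1699.9 to 1843 CPM at exponential and 1153 to 1262 CPM at stationary phase (log2 fold change -0.51 ± 0.05 (SE), adjusted p = 1.8e-09), and Eif6 had 331 to 344 CPM and then 232 to 241 CPM (log2 fold change -0.50 ± 0.05 (SE), adjusted p = 7.2e-09). None of the stationary cultures reached the exponential range for these 5 genes. The smaller falls of Eif4a1, Eif5a2, Eif4e and Eif2s1 had log2 fold changes of -0.38, -0.39, -0.28 and -0.20, all past the threshold. Eif4a2 had 166, 162 and 162 CPM at exponential and 267, 291 and 302 CPM at stationary phase, a 1.78-fold rise (log2 fold change 0.83 ± 0.06 (SE), adjusted p = 1.4e-12). The ratio of Eif4a1 to Eif4a2 counts, 3.47 to 3.68 in the exponential A1 cultures, was 1.44 to 1.68 in the stationary ones, and in the stationary A0 cultures it was 0.950 to 1.19. In CHO-S it was 3.04 to 3.27 at exponential phase and 1.33, 2.62 and 2.81 in the 3 stationary cultures. Eif4g3, Eif1, Eif4b and Eif3m were the other genes that rose in A1 (log2 fold changes 0.45, 0.30, 0.20 and 0.15), and of these Eif3m lost its call without culture 1 or 3 of either phase.

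In CHO-S the result turned on stationary culture 1. With it, 7 of the 44 genes passed, 1 higher and 6 lower, 15.9% against 13.3% of the 17367 genes tested and 17.6% of those with at least 5 CPM on average. Leaving out any other single culture of CHO-S while culture 1 stayed left 0 genes past the threshold in edgeR's test, with 9 to 15 at an unadjusted p under 0.05. The same refits called 0 to 574 of all genes tested. Without culture 1, 37 passed, 3 higher and 34 lower, 84.1% against 47.7% of the 17319 genes tested and 66.7% of those with at least 5 CPM on average. The genes that fell without culture 1 were 77.3% of the 44 and 37.9% of the genes with at least 5 CPM. Across all 3 CHO-S cultures 3 genes were higher and 28 lower without overlap, and 36.4% of all genes tested had no overlap. The 6 genes that fell with culture 1 included were Eif2b1, Eif4a1, Eif3b, Eif3l, Eif4g1 and Eif2s3, and the 1 that rose was Eif4e3. Without culture 1, Eif4g3 and Eif5a2 rose as well (0.15 ± 0.05 (SE), adjusted p = 0.007, and 0.17 ± 0.06 (SE), adjusted p = 0.0065). Eif4g1 had 1592, 1651 and 1662 CPM at exponential and 916, 1077 and 1056 CPM at stationary phase (log2 fold change -0.68 ± 0.11 (SE), adjusted p = 0.0083 with culture 1, -0.61 without it). Eif2b1 had 59.9, 62.3 and 61.8 CPM and 22.7, 37.4 and 36.0 CPM (log2 fold change -0.86 ± 0.18 (SE), adjusted p = 0.02 with culture 1, -0.73 without it). The direction of Eif4e depended on the culture, with a log2 fold change of 0.67 ± 0.55 (SE), adjusted p = 0.46 with it and -0.36 ± 0.05 (SE), adjusted p = 2.4e-10 without it. Eif5a fell by 0.75 on the log2 scale without culture 1 (adjusted p = 4.9e-30), and had -1.16 ± 0.46 (SE), adjusted p = 0.14 with it.

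**Figure D4:**
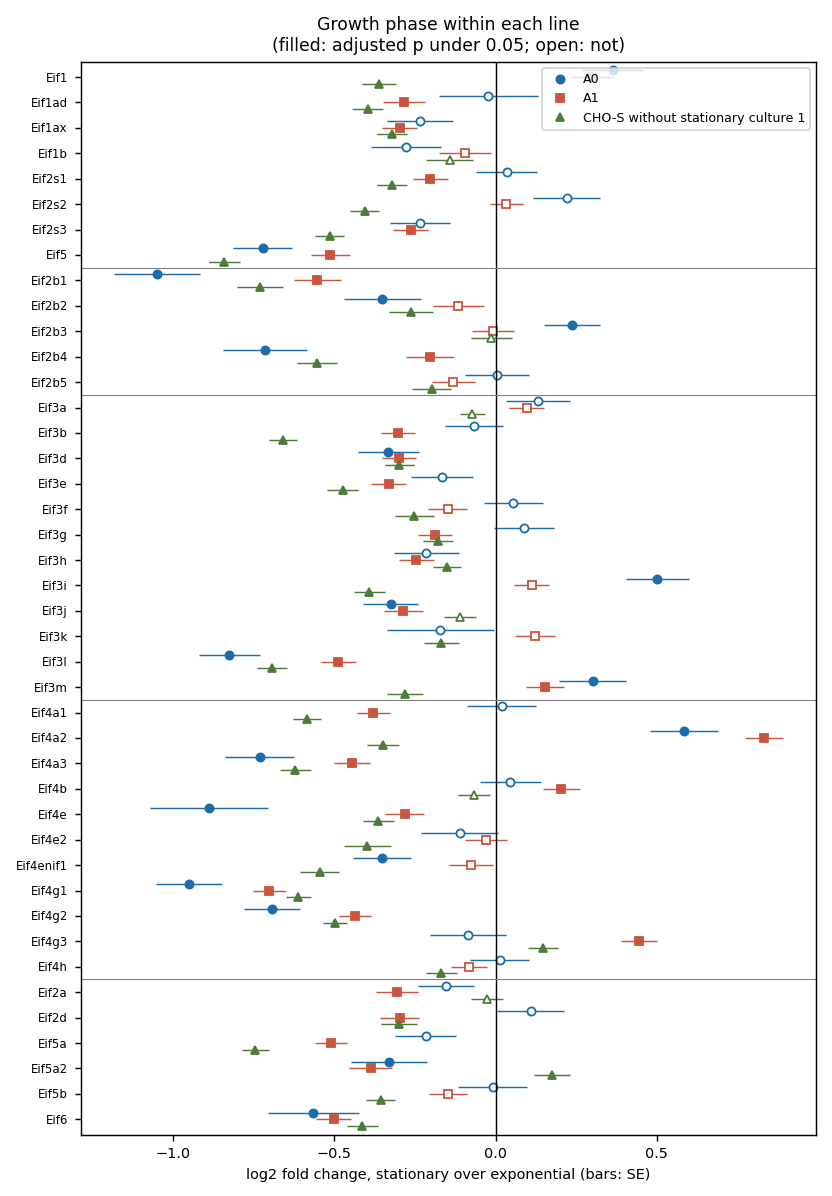
Log2 fold change of stationary over exponential phase (horizontal axis) in A0 (circles), A1 (squares) and CHO-S without stationary culture 1 (triangles) for 42 initiation factor genes grouped by role. Bars are standard errors, filled symbols passed the threshold, and Eif4e1b and Eif4e3 are left out. Most filled symbols lie left of 0 in A1 and CHO-S, and Eif4a2, Eif1 and Eif3m lie right of 0 in A0 and A1 and left of 0 in CHO-S.

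Side by side, 12 of the 44 genes were lower at stationary phase in both A0 and A1, and 10 of them also in CHO-S without culture 1. Of all genes tested 12.5% were lower in both and 9.22% in all 3 lines, and of those with at least 5 CPM on average 20.6% and 14.2%. These 10 were Eif2b1, Eif2b4, Eif3d, Eif3l, Eif4a3, Eif4e, Eif4g1, Eif4g2, Eif5 and Eif6. No gene was higher in all 3 lines. Eif4a2, Eif1 and Eif3m were higher at stationary phase in both A0 and A1 and lower in CHO-S without culture 1. Eif4a2 had 169, 162 and 162 CPM in the exponential and 149, 132 and 126 CPM in the stationary CHO-S cultures (log2 fold change -0.28 ± 0.13 (SE), adjusted p = 0.19 with culture 1, -0.35 ± 0.05 (SE), adjusted p = 4.6e-09 without it). The change with phase was tested against that in CHO-S, a comparison added after the values were seen and fitted without culture 1. Among the 44 genes 10 passed for A0, all in the upward direction, 22.7% against 17.2% of the 20868 genes tested and 29.6% of those with at least 5 CPM on average. For A1 18 passed, 16 upward and 2 downward, 40.9% against 25.4% of the 19655 genes tested and 42.9% of those with at least 5 CPM on average. With culture 1 in the fit 6 passed for A0 and 3 for A1, against 10.3% and 7.60% of all genes tested. Eif4a2 differed from CHO-S by 0.98 ± 0.14 (SE) on the log2 scale in A0 (adjusted p = 4.7e-05) and by 1.17 ± 0.08 (SE) in A1 (adjusted p = 1.6e-19). With culture 1 in the fit these were 0.87 ± 0.18 (SE), adjusted p = 0.0036, and 1.12 ± 0.15 (SE), adjusted p = 0.00049. Eif1 differed by 0.77 in A0 and 0.64 in A1, and passed with culture 1 as well (adjusted p = 0.0077 and 0.017, edgeR). Eif3m (0.64 in A0 and 0.42 in A1) did not pass once culture 1 was in the fit. The tests for A0 and A1 share the CHO-S cultures.

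The third set of comparisons placed A0 and A1 beside CHO-S, and both use the same CHO-S cultures. At exponential phase the eIF3 subunit genes Eif3h, Eif3k and Eif3g were higher in both producing lines, as were Eif3d, Eif3e, Eif3f and Eif3l, while Eif2a, Eif4e3, Eif3a, Eif3j, Eif5 and Eif1 were lower. For A0 29 of the 44 genes passed, 17 higher and 12 lower, 65.9% against 49.5% of the 19966 genes tested and 65.7% of those with at least 5 CPM on average. For A1 31 passed, 19 higher and 12 lower, 70.5% against 57.2% of the 18488 genes tested and 76.1% of those with at least 5 CPM on average. There was no overlap for 20 higher and 13 lower genes in A0, and for 21 higher and 15 lower genes in A1, against 53.8% and 61.9% of all genes tested.

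At stationary phase with culture 1, 26 genes passed for A0, 18 higher and 8 lower, against 40.0% of the 19007 genes tested and 48.9% of those with at least 5 CPM on average. For A1 13 passed, 9 higher and 4 lower, against 34.8% of the 18243 genes tested and 41.5% of those with at least 5 CPM on average. Cultures did not overlap for 22 higher and 8 lower genes in A0 and for 20 higher and 9 lower genes in A1, against 45.1% and 48.8% of all genes tested. Without culture 1, 34 genes passed for A0, 26 higher and 8 lower, against 51.8% of all genes tested and 68.2% of those with at least 5 CPM on average. For A1 33 passed without it, 23 higher and 10 lower, against 57.4% of all genes tested and 74.5% of those with at least 5 CPM on average. Leaving out 1 CHO-S culture thus moved the count for A1 from 13 to 33.

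Most eIF3 subunit genes were higher in the producing lines. At exponential phase 7 of the 12 were higher and 3 lower in A0 than in CHO-S, with a median log2 fold change of 0.37, and 8 were higher and 2 lower in A1, with a median of 0.54. At stationary phase without culture 1, 9 were higher and 1 lower in A0, and 10 higher and 2 lower in A1, with medians of 0.71 and 0.54. With culture 1, 8 were higher and 1 lower in A0 and 8 higher and 0 lower in A1, with medians of 0.71 and 0.64. Among all genes of at least 5 CPM, 33.7% and 37.6% were higher in A0 and A1 at exponential phase, and 35.3% and 37.7% at stationary phase without culture 1. Over all genes tested at exponential phase the medians were 0.14 and 0.05, and over those with at least 5 CPM on average 0.03 and -0.0025. Eif3h had 310.5, 299.8 and 301 CPM in the exponential CHO-S cultures, 787, 687, 649 and 592 CPM in A0 and 591, 593 and 594 CPM in A1. Both lines were far above CHO-S, by 2.25-fold for A0 (log2 fold change 1.17 ± 0.10 (SE), adjusted p = 2.7e-07) and 1.94-fold for A1 (log2 fold change 0.96 ± 0.04 (SE), adjusted p = 1.2e-15). Eif3k had 106 to 109 CPM in CHO-S, 124 to 246 CPM in A0 and 168 to 173 CPM in A1 (log2 fold changes 0.85 and 0.67). Eif3g had 241 to 246, 374 to 439.8 and 363 to 387 CPM in the same order (log2 fold changes 0.77 and 0.60). Eif3a, the largest subunit, was lower in both lines (log2 fold changes -0.24 and -0.47), and so was Eif3j, a loosely bound subunit (-0.24 and -0.14). Eif3m was lower in A0 (log2 fold change -0.47 ± 0.10 (SE), adjusted p = 0.0016) and did not pass in A1. Eif3i was higher in A1 (log2 fold change 0.53 ± 0.05 (SE), adjusted p = 4.4e-10) and did not pass in A0 at exponential phase, while at stationary phase it was higher in both (1.22 and 1.30 with culture 1, 0.97 and 1.00 without it).

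**Figure D5:**
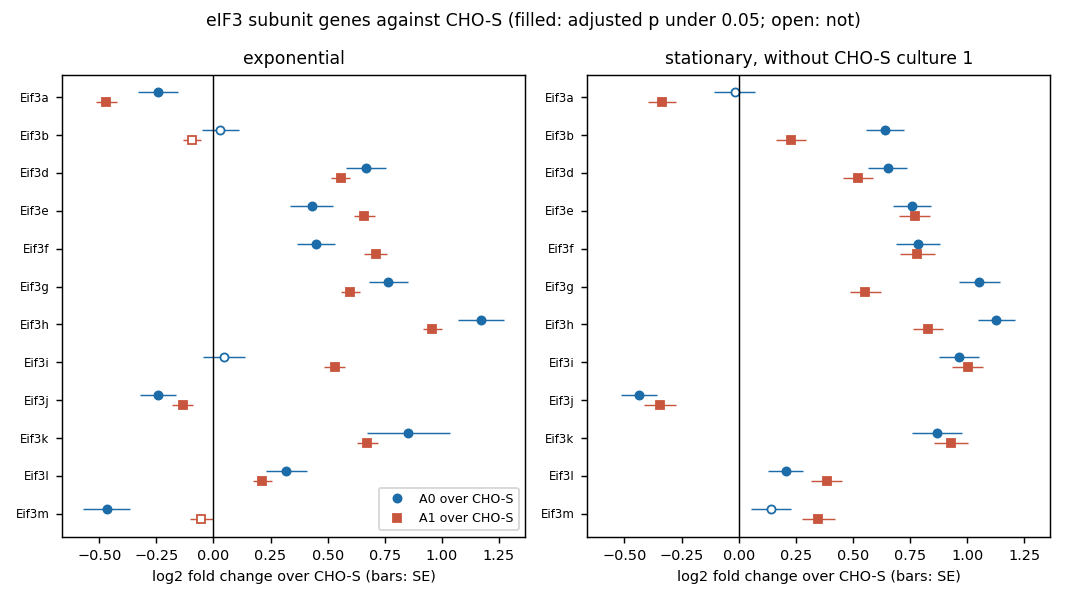
Log2 fold change over CHO-S (horizontal axis) of the 12 eIF3 subunit genes in A0 (circles) and A1 (squares), at exponential phase on the left and at stationary phase without CHO-S culture 1 on the right. Bars are standard errors and filled symbols passed the threshold. Eif3h has the largest value in the exponential panel, 1.17 in A0, and Eif3j lies left of 0 in both panels and lines.

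Eif4e3, an atypical member of the cap-binding family, separated the lines almost fully. The 4 exponential A0 cultures had 4, 4, 2 and 2 counts and the 3 exponential A1 cultures had 6, 0 and 0, against 345, 269 and 278 counts in CHO-S. At stationary phase the counts were 1, 2, 1 and 1 in A0, 1, 1 and 0 in A1, and 36, 547 and 274 in CHO-S, the 36 being those of the shallow culture 1. Summed over cultures and divided by the reads on genes, CHO-S had 182 times the level of A0 (exact 95% interval 104 to 354) and 135 times that of A1 (61.7 to 368) at exponential phase, and 357 times (152 to 1102) and 563 times (155 to 4657) at stationary phase. These intervals cover counting error only. Within CHO-S Eif4e3 was higher at stationary phase, with 37.1 to 40.1 CPM against 21.1 to 24.6 CPM (log2 fold change 0.76 ± 0.12 (SE), adjusted p = 0.0082), and it passed without culture 1 too (0.77). Eif4e1b, the germ cell form of the cap-binding protein, had 0 to 9 counts in each of the 20 cultures and passed in no comparison of all cultures.

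Eif2a, an initiator tRNA carrier that is no subunit of eIF2, had 157, 150.0 and 148 CPM in the exponential CHO-S cultures, 67.2, 72.2, 74.6 and 69.0 CPM in A0 and 79.0, 82.5 and 79.4 CPM in A1. CHO-S was above every culture of both lines, 2.12-fold above A0 (log2 fold change -1.09 ± 0.08 (SE), adjusted p = 4.4e-08) and 1.89-fold above A1 (log2 fold change -0.92 ± 0.05 (SE), adjusted p = 8.6e-14). At stationary phase the log2 fold changes were -1.19 and -1.23 without culture 1 and -1.53 and -1.54 with it. Eif5 was lower than in CHO-S in both lines at exponential phase (log2 fold changes -0.42 and -0.58), and Eif1 was lower too (-0.34 and -0.74).

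The helicases and the cap-binding protein placed A1 and A0 differently beside CHO-S. At exponential phase Eif4a2 was 1.62-fold higher in A0 than in CHO-S (log2 fold change 0.69 ± 0.09 (SE), adjusted p = 2.5e-05), and in A1 it had 162 to 166 CPM against 162 to 169 CPM in CHO-S and did not pass (log2 fold change -0.02 ± 0.04 (SE), adjusted p = 0.77). Eif4a1 was lower than CHO-S in A0 (log2 fold change -0.32 ± 0.10 (SE), adjusted p = 0.016) and slightly higher in A1 (0.15 ± 0.04 (SE), adjusted p = 0.0025). Eif4e was lower in A1 (log2 fold change -0.61 ± 0.05 (SE), adjusted p = 7.5e-11), and in A0, where culture 4 was low, it did not pass (0.13 ± 0.20 (SE), adjusted p = 0.61). Eif4g1 was lower in A1 (-0.31 ± 0.04 (SE), adjusted p = 2.5e-07) and did not pass in A0 (0.10 ± 0.09 (SE), adjusted p = 0.38). At stationary phase Eif4a2 was higher than CHO-S in both lines, by 1.55 and 1.07 on the log2 scale with culture 1 and by 1.65 and 1.13 without it. For Eif4e the stationary log2 fold changes were -1.44 and -1.60 with culture 1, and -0.37 and -0.56 without it, all past the threshold.

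The other genes followed throughout gave these values beside CHO-S. Eif5a was higher in both lines at exponential phase, with 1114 to 1197 CPM in CHO-S, 1271 to 1517 CPM in A0 and 1699.9 to 1843 CPM in A1 (log2 fold changes 0.31 ± 0.09 (SE), adjusted p = 0.0092, and 0.61 ± 0.04 (SE), adjusted p = 7.8e-12). At stationary phase without culture 1 its log2 fold changes were 0.86 and 0.81, and with it 1.24 ± 0.39 (SE), adjusted p = 0.027, and 1.23 ± 0.44 (SE), adjusted p = 0.061. Eif6 and Eif2s1 were higher in A1 than in CHO-S at exponential phase (0.45 ± 0.04 (SE), adjusted p = 7.1e-09, and 0.30 ± 0.04 (SE), adjusted p = 2.3e-06) and did not pass in A0 (0.15 and 0.16). Eif5a2 did not pass in either line at exponential phase (-0.07 and 0.10), and at stationary phase it was lower in both (-0.82 and -0.72 with culture 1, -0.56 and -0.50 without it). Of the eIF2B genes, Eif2b4 was higher in both lines at exponential phase (0.77 and 0.54), and Eif2b1 and Eif2b5 in A0 (0.65 and 0.45).

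Of 35 regulators and partners of initiation that are outside the family, 34 were rows of the table. At exponential phase 6 were higher and 5 lower in A1 than in A0, 32.4% of the list against 25.9% of all genes tested and 37.8% of those with at least 5 CPM on average, with a median log2 fold change of 0.08. Eif4ebp1, which binds the cap-binding protein and blocks it, was lower in A1 (log2 fold change -0.40 ± 0.09 (SE), adjusted p = 0.0055), and so was Denr, a partner in the recycling of ribosomes (-0.69 ± 0.13 (SE), adjusted p = 0.0014). Mtif2, the initiation factor of mitochondria, was higher, with mean levels of 66.2 CPM in A1 and 32.7 CPM in A0 (log2 fold change 1.01 ± 0.09 (SE), adjusted p = 1.3e-06). At stationary phase 33 were tested, with 8 higher and 7 lower in A1, 45.5% against 33.7% of all genes tested and 47.3% of those with at least 5 CPM on average, and a median of 0.04. Eif4ebp1 then had mean levels of 136 CPM in A1 and 269 CPM in A0 (log2 fold change -0.99 ± 0.07 (SE), adjusted p = 2.4e-07). Ppp1r15a, which directs the phosphatase of eIF2, was higher in A1 at exponential phase (0.25 ± 0.09 (SE), adjusted p = 0.044) and lower at stationary phase (-0.79 ± 0.21 (SE), adjusted p = 0.0083). Of the eIF2 kinases, Eif2ak4 was higher in A1 at both phases (0.32 and 0.32), and Eif2ak3 was lower at stationary phase (-0.28).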

How the data were processed

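RNA was sequenced from 24 libraries of 20 cultures, made with a stranded mRNA kit. The authors aligned the reads with STAR (version 2.5.4b) to the genome build C_griseus_v1.0 and deposited counts of reads per gene from HTSeq-count (version 0.7.2), and the strand setting is not given in the sources used here. The 5 summary lines of the table, which held 31.8% to 49.8% of its reads per library, were left out, and 12.7% to 14.8% of the reads aligned to more than 1 place and were not counted on genes. Every library column was mapped to a sample. Both libraries of an exponential A0 culture, the second one marked RLT or Duplicate, were summed. RLT and first libraries differed for more genes than those remarked on above. In culture 1 Eif3h had 860 against 662 CPM and Eif5b 151 against 234 CPM, RLT library first, before TMM scaling. Nothing says that cultures were started independently, so p-values refer to the spread between these cultures. The quasi-likelihood test draws the spread of each gene toward that of the other genes. The smallest p-values therefore rest also on this shared estimate and not on the few cultures of a gene alone.

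Levels are counts per 1000000 counts (CPM) after TMM scaling over all 20 cultures. The test was edgeR's quasi-likelihood test (glmQLFit and glmQLFTest of edgeR 4.0.16 in R 4.3.3, TMM, two-sided), run for every gene that had 1 count or more in 2 cultures or more and a variance above 0, on the whole table, each comparison fitted on its own groups, and p-values were adjusted over all genes tested (Benjamini-Hochberg, threshold 0.05). The study's own test was DESeq2, used here as an alternative (1.42.0). The standard error is the size of the log2 fold change divided by the root of F. The fits were tested on simulated counts with planted changes of 1 size in genes above 5 CPM. Smaller changes and most of the comparisons, the stationary CHO-S ones among them, were not simulated. The 44 symbols all matched RefSeq names. Statistics are given per comparison for up to 5 genes in each direction with the largest change among those past the threshold, with at least 5 CPM and no overlap between cultures, and for Eif2s1, Eif4e, Eif4g1, Eif4a1, Eif4a2, Eif5a, Eif5a2 and Eif6. Other genes named were chosen after their values were seen, and 1 marker gene is not reported here. The genes, the 2 lists outside the family (regulators and partners; elongation and release) and the tests were chosen with earlier results of these data known. Replicate numbers were taken to pair the cultures between the phases of A0, where the deviations of every pair correlated by 0.19 to 0.44 across genes. Between the phases these correlations were -0.15, -0.13 and 0.19 in A1, and 0.12, 0.12 and -0.0074 in CHO-S. Between the lines they ran from -0.195 to 0.085. A difference of A0 cultures 1 and 2 from cultures 3 and 4 at both phases could give the A0 correlations too, and was not tested. The common coefficient of variation that edgeR fitted between A1 and A0 was 0.118 at exponential phase. It was 0.061 with A0 cultures 1 and 2 alone and 0.088 with 3 and 4 alone. At stationary phase the same values were 0.102, 0.061 and 0.054. With so few pairs, unpaired cultures of A1 and CHO-S cannot be told from paired ones, and the main tests used no pairing. The alternatives were DESeq2, RLE scaling, library totals, other filters, 1 fit of all 6 groups, the replicate block, the first A0 library alone and leaving out each culture. Python 3.11.15 with scipy 1.17.1 and matplotlib 3.10.9 was used for the counting intervals and plots.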

Additional observations from a re-analysis of the deposited data

Results flagged for a closer look

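Among 87 groups of 4 cultures tested, in which chance alone gives about 1 in 20, 2 had a culture whose gap to the others passed Dixon's critical share of the range. Both were stationary A0 culture 1, which was high for Eif4h (gap 0.833 of the range) and for Eif5a (0.837). Eif5a had 1331, 1193, 1179.9 and 1205 CPM in these cultures.

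The difference between A1 and A0 itself differed between the phases for Eif4a1 (log2 -0.44), Eif4g3 (0.49), Eif3i (-0.43) and Eif2d (-0.44), by the interaction of line and phase.

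The change from exponential to stationary phase went in opposite directions in a producing line and in CHO-S without stationary culture 1, each past the threshold, with an interaction that passed. In A0 these genes were Eif4a2 (log2 difference from CHO-S 0.98), Eif3i (0.95), Eif3m (0.64) and Eif1 (0.77). In A1 they were Eif4a2 (1.17), Eif3m (0.42), Eif1 (0.64) and Eif5a2 (-0.58). The interaction of Eif3m did not pass with culture 1 in the fit. The A0 and A1 tests share the CHO-S cultures.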

How the results depend on the processing

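Counts of initiation factor genes past the threshold moved by more than 1.5 times in these settings. Between A1 and A0 at exponential phase, 18 genes became 9 to 23 when 1 culture was left out and 30 with A0 cultures 1 and 2 alone. All genes tested gave 5163 calls, 3160 to 6015 when 1 culture was left out and 7179 with A0 cultures 1 and 2 alone. Between A0 and CHO-S at stationary phase, 26 became 16 to 34 when 1 culture was left out, 16 without A0 culture 1 or 2, and 16 with the replicate block. Over all genes tested 7606 calls became 5475 to 9831 when 1 culture was left out. They became 6529 and 6450 without A0 culture 1 and 2, and 5043 with the block. Between A1 and CHO-S, 31 at exponential phase became 17 with 6 groups in 1 fit, and 13 at stationary phase became 20 with DESeq2, 21 with library totals, 28 with 6 groups in 1 fit and 7 to 33 when 1 culture was left out, with 7 lacking A1 culture 2 and 8 lacking A1 culture 3. All genes tested gave 10568 calls at exponential phase and 7548 with 6 groups in 1 fit. At stationary phase they gave 6345, and 5846 with DESeq2, 6664 with library totals and 8294 with 6 groups in 1 fit. When 1 culture was left out they gave 4051 to 10451, with 4054 lacking A1 culture 2 and 4098 lacking A1 culture 3. For the phase change in A1, 29 became 9 with 6 groups in 1 fit, where all genes tested went from 6196 to 2470 calls. For the phase change in CHO-S, 7 became 13 with DESeq2, 19 with 6 groups in 1 fit, 0 with the replicate block (16 at an unadjusted p under 0.05) and 0 to 37 when 1 culture was left out. In the same order, 2308 calls over all genes tested became 2727, 4107, 350 and 0 to 8269. For line by phase in A1 and A0, 4 became 10 with DESeq2, 2 with library totals, 0 with 6 groups in 1 fit (7 at an unadjusted p under 0.05), 10 with the replicate block, 7 with the first A0 library alone and 0 to 8 when 1 culture was left out. It became 2, 1 and 8 without A0 exponential culture 2, 3 or 4, and 1 without A1 exponential culture 1 or A1 stationary culture 3. Line by phase gave 1873 calls over all genes tested, 2402 with DESeq2, 1870 with library totals and 973 with 6 groups in 1 fit. It gave 3435 with the replicate block, 2359 with the first A0 library alone and 1003 to 2653 when 1 culture was left out. The interactions against CHO-S went from 10 to 6 for A0 and from 18 to 3 for A1 with CHO-S stationary culture 1. Over all genes tested they went from 3586 to 2159 for A0 and from 4990 to 1495 for A1.

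The replicate block gave 25 genes for the phase change in A0, where the numbers were taken to pair the cultures and the block changed the call of Eif5a among the genes named. Elsewhere no pairing by number was seen in every pair of cultures, which cannot show that the cultures were unpaired. There the block gave 25 and 19 genes between A1 and A0 at the 2 phases and 32 between A0 and CHO-S at exponential phase. It gave 31 and 13 between A1 and CHO-S, and 29 for the phase change in A1. Over all genes tested the block gave 8661 calls for the phase change in A0 and 6346 for that in A1. Between A1 and A0 it gave 6192 and 6492 at the 2 phases, and between A1 and CHO-S 10170 and 4726. Between A0 and CHO-S at exponential phase it gave 10209.

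Of the named genes, some changed sign, all but 1 with neither value past the threshold. When 1 culture was left out, log2 fold changes spanned these ranges. Eif5a between A1 and A0 at stationary phase ran from -0.0398 to 0.027, positive without culture 1 of either line. Eif4e between A0 and CHO-S at exponential phase ran from -0.024 to 0.33, negative without A0 culture 1, and Eif4a2 between A1 and CHO-S from -0.045 to 0.0048, positive without CHO-S culture 1. For the phase change in A0, Eif4a1 ran from -0.061 to 0.10 and Eif2s1 from -0.024 to 0.086, both lowest without exponential culture 3. For line by phase, Eif5a2 ran from -0.16 to 0.015 and Eif6 from -0.11 to 0.13. The exception was Eif4e in CHO-S, at -0.36 to 1.02, negative and past the threshold without stationary culture 1. Library totals gave 0.045 for Eif5a between A1 and A0 at stationary phase and 0.051 for Eif4a2 between A1 and CHO-S at exponential phase. With A0 cultures 3 and 4 alone Eif5a was 0.033, with cultures 1 and 2 alone Eif5a2 was -0.0703 at stationary phase, and with the first A0 library alone Eif6 was -0.095 for line by phase. The cause of these changes was not tested, other than that leaving out a culture leaves fewer. Library totals moved the median of all genes from 0.08 to 0.19 for A0 against CHO-S at stationary phase and from 0.06 to 0.22 for A1. CHO-S stationary culture 1, with 1038026 counts, limits the stationary CHO-S comparisons most, and close paralogs may lose reads that align to more than 1 place.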

Other observations

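Elongation and release factors, 18 of 19 listed genes being rows of the table, were counted in the same way. Between A1 and A0 at exponential phase 2 were higher and 2 lower, 22.2% against 25.9% of all genes tested and 37.8% of those with at least 5 CPM on average, with a median log2 fold change of -0.04. Eef1a1, the main carrier of aminoacyl-tRNA to the ribosome, was lower in A1 (log2 fold change -0.36 ± 0.12 (SE), adjusted p = 0.04), and its paralog Eef1a2 was higher (mean levels of 17.7 CPM in A1 and 13.1 CPM in A0, log2 fold change 0.43 ± 0.13 (SE), adjusted p = 0.021). At stationary phase 3 were higher and 6 lower, 50.0% against 33.7% of all genes tested and 47.3% of those with at least 5 CPM on average, with a median of -0.11. Eef1a1 (-0.41 ± 0.07 (SE), adjusted p = 0.00033), Eef1b2, Eef1d, Eef1e1 and Eef1g were then lower in A1, and Eef1a2 (0.56 ± 0.12 (SE), adjusted p = 0.0024) and Eef2k, the kinase that inhibits Eef2 (0.61 ± 0.09 (SE), adjusted p = 0.00012), were higher. Between the phases Eef1a2 rose in A0 (log2 fold change 0.71 ± 0.13 (SE), adjusted p = 0.00045) and in A1 (0.88 ± 0.10 (SE), adjusted p = 1.8e-08), and the mitochondrial elongation factor gene Gfm1 fell in both (-0.74 ± 0.09 (SE), adjusted p = 1.0e-05, and -0.65 ± 0.06 (SE), adjusted p = 1.6e-10).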
